A study of Mus musculus with 10 samples.

Results

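Messenger RNAs of 10 genes of the integrated stress response were measured in the jejunum of mice that lacked Pcyt1a in the intestinal epithelium and of their controls. The genes were taken from a fixed list of symbols, namely Atf4, Atf3, Ddit3, Trib3, Chac1, Asns, Nupr1, Ppp1r15a, Stc2 and Cebpg. All 10 of 10 were measured, each by 1 probe set, among 22180 genes in all. The knockout group was Pcyt1aLoxP/LoxP;VilCreERT2, in which tamoxifen activates a Cre recombinase driven by the promoter of villin, a gene of gut epithelial cells. The control group was Pcyt1aLoxP/LoxP, with the same floxed alleles and no Cre. Both groups were female, aged 10 to 12 weeks, and both received tamoxifen for 5 days, a high fat diet for 4 days and an overnight fast before a 3 cm piece was taken. The series text adds re-feeding, whereas the sample labels give the fasted state. There were 5 knockout arrays, numbered 1 to 5, and 5 control arrays, numbered 6 to 10, with 1 sample on each array. Cells other than epithelium keep Pcyt1a in this model and are part of the piece.

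The integrated stress response begins when a kinase phosphorylates the translation factor eIF2, which lowers protein synthesis in general and raises translation of the Atf4 messenger RNA. ATF4 is a bZIP transcription factor that pairs with C/EBP proteins and switches on genes for amino acid supply, and, under prolonged stress, the transcription factor CHOP, encoded by Ddit3. Because ATF4 is controlled largely at translation, its messenger RNA does not report the amount of ATF4 protein. In the gut the pathway is known from amino acid shortage, endoplasmic reticulum stress and mitochondrial stress.

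Many targets of ATF4 carry a composite C/EBP-ATF element near their start, and the 250 bases upstream of the start were therefore read for the members (RefSeq, GRCm38.p6, 10 of 10 genes matched). The letters searched were TGATGNAA on both strands, in windows that ran from 250 bases before to 50 bases after the start. A match was present for 5 of 10 members, against 3.92% of 16990 tested genes with a window and 3.97% of all 32851 windows of that length. The 4 upstream matches, shown in capitals, lay at -23 to -16 in Asns, -193 to -186 in Chac1, -110 to -103 in Nupr1 and -110 to -103 in Atf3. The upstream stretches are chr6:7693210-7693459 (minus strand) for Asns, chr2:119350992-119351241 (plus strand) for Chac1, chr7:126625471-126625720 (minus strand) for Nupr1 and chr1:191183334-191183583 (minus strand) for Atf3. They are printed from 5′ to 3′ on the strand of the gene because they carry the element through which ATF4 is known to act.
Asns: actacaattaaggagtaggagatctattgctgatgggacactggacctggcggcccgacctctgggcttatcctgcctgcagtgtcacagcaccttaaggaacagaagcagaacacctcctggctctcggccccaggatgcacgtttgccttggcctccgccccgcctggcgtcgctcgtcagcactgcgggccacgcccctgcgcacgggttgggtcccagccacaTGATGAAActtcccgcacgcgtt
Chac1: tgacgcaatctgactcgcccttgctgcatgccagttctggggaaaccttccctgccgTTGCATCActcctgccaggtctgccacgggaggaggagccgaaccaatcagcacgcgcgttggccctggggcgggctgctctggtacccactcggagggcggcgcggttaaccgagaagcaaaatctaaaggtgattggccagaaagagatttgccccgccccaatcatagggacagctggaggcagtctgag
Nupr1: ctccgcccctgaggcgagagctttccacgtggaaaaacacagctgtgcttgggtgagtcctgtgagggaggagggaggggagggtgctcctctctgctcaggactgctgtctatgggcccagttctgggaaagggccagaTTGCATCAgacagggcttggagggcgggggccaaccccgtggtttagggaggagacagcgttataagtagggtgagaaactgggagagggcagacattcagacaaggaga
Atf3: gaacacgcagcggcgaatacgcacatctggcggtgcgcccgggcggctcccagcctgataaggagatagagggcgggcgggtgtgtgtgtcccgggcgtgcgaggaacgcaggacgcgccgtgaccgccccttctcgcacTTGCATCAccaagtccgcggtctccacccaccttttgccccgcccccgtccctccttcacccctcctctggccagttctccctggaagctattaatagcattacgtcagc
The match of Trib3 lay after the start, at 14 to 21, and is shown with its neighbours (chr2:152344028-152344057, minus strand).
Trib3: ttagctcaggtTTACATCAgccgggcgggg
Of the other elements searched, the cAMP response element TGACGTCA, which reads the same on both strands, was found only in Ppp1r15a among the members, at -12 to -5 (2.65% of tested genes). The endoplasmic reticulum stress element, searched by its standard letters on both strands, was found in 0 of 10 members (0.171% of tested genes). No match of 1 element overlapped a match of another. A match says only that these letters are present.

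No member passed the test between knockouts and controls. With limma over all 22180 genes, 0 of 10 members had an adjusted p under 0.05, against 0.0271% of all genes (1 gene higher in knockouts, 0.00451%, and 5 lower, 0.0225%), and the smallest adjusted p of a member was 0.224. At an unadjusted p under 0.05 there were 2 of 10 members, Asns and Stc2, both higher in knockouts. Of all genes, 13.9% were under it in either direction and 8.29% in the higher direction. The exact permutation test over the splits of the arrays gave an unadjusted p under 0.05 for the same number, 2 of 10. Knockout and control values overlapped for 10 of 10 members, while 2.60% of all genes showed no overlap (1.64% higher and 0.965% lower in knockouts). The median log2 fold change (knockout minus control) was 0.04 over the members and -0.01 over all genes. The 95% interval of the difference included 0 for 8 of 10 members. The labels do not state that each sample was a different mouse. If some were not, the p-values reflect technical as well as animal spread.

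Depletion of the targeted gene was checked first. Pcyt1a had a mean log2 intensity of 7.46 ± 0.25 in knockouts and 9.39 ± 0.17 in controls (n = 5 each, ± SD), and limma gave a difference of -1.93 (SE 0.13, adjusted p = 9.577e-05). The labelled tissue was checked by Vil1, the villin gene, at 12.34 ± 0.05 in knockouts and 12.33 ± 0.12 in controls, and by Gata4, a transcription factor of the upper small intestine, at 9.42 ± 0.10 in knockouts and 9.35 ± 0.12 in controls. Other genes listed for position along the gut were uneven between arrays. Onecut2 ran from 6.38 on knockout 3 to 8.94 on control 8. Fabp6 was at 7.48 on knockout 3 and between 4.41 and 5.73 on the other arrays. Slc10a2 was at 7.27 on control 10 and between 4.22 and 5.92 on the other arrays. Whether the pieces came from the same position was not tested. The median log2 intensity over all genes lay between 5.77 and 5.89 on every array.

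**Figure D1:**
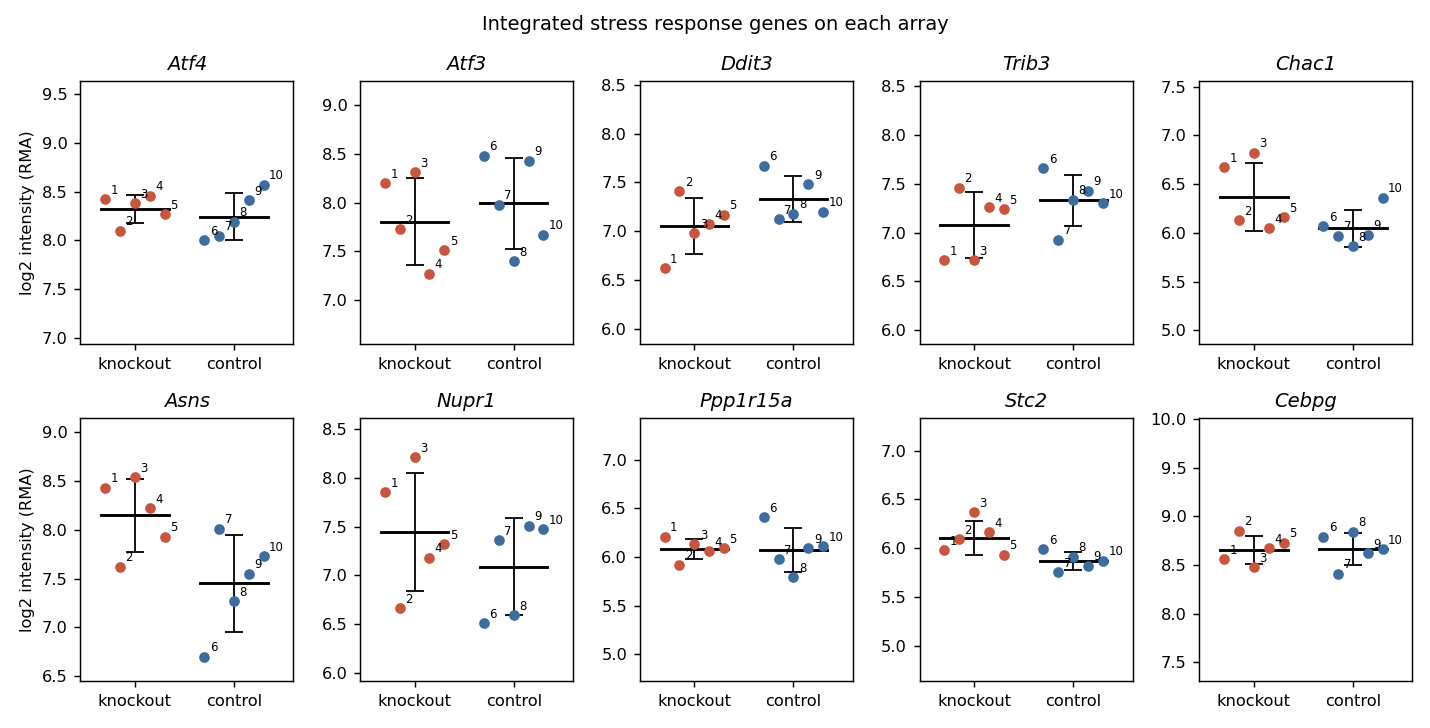
Log2 intensity of each of the 10 genes on every array, with knockouts left of controls. Points are arrays with their numbers, thick bars are means and whiskers are SD (n = 5 each), and every panel spans the same log2 range. The 2 groups overlap in every panel, and the mean of Asns is 8.15 in knockouts and 7.45 in controls.

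Atf4 itself, the central activator, differed little. It read 8.42, 8.10, 8.38, 8.46 and 8.27 on knockouts 1 to 5, and 8.00, 8.05, 8.19, 8.41 and 8.57 on controls 6 to 10. The highest and the lowest values were both in controls. The log2 fold change was 0.08, with a 95% interval of -0.19 to 0.35. Cebpg, a C/EBP protein that forms heterodimers with ATF4, had means of 8.66 ± 0.14 in knockouts and 8.66 ± 0.17 in controls (n = 5 each, ± SD), and an interval of -0.23 to 0.22. Its values ran between 8.48 and 8.85 in knockouts and between 8.41 and 8.84 in controls.

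The stress-induced transcription factors lay slightly lower in knockouts, within the spread of the arrays. Ddit3, which encodes the pro-apoptotic factor CHOP, read 6.62, 7.41, 6.98, 7.07 and 7.17 on the knockouts, and 7.67, 7.12, 7.18, 7.48 and 7.20 on the controls. Knockout 1 was lowest of all arrays and control 6 highest. The log2 fold change was -0.28 (SE 0.15, limma adjusted p = 0.443). Atf3, an early-response bZIP factor downstream of ATF4, read 8.20, 7.73, 8.31, 7.27 and 7.51 on the knockouts, and 8.48, 7.98, 7.40, 8.43 and 7.67 on the controls. It varied by about the same amount in both groups (SD 0.44 in knockouts and 0.47 in controls), and its log2 fold change was -0.19 (SE 0.25, limma adjusted p = 0.777).

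The feedback genes did not differ beyond their spread. Trib3, a pseudokinase that is induced by ATF4 and CHOP and restrains ATF4, read 6.72, 7.46, 6.72, 7.26 and 7.24 on the knockouts. On the controls it read 7.66, 6.93, 7.34, 7.43 and 7.30. Knockouts 1 and 3 and control 7 were low, and the log2 fold change was -0.25 (SE 0.17, limma adjusted p = 0.547). Ppp1r15a encodes GADD34, the stress-induced subunit that directs a phosphatase to eIF2. It ran from 5.92 to 6.21 in knockouts and from 5.79 to 6.41 in controls, and its difference was 0.01 (95% interval -0.24 to 0.25).

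Among the targets, Asns, the enzyme that makes asparagine, showed the largest difference of the members. It read 8.43, 7.62, 8.54, 8.22 and 7.93 on the knockouts, and 6.70, 8.01, 7.27, 7.55 and 7.73 on the controls. Of the knockouts, 3 stood above every control, and control 7 stood above knockouts 2 and 5. The log2 fold change was 0.70 (SE 0.24), or 1.62-fold, with an unadjusted p of 0.0129 and a limma adjusted p of 0.224. Stc2, which encodes a secreted glycoprotein, had means of 6.11 ± 0.17 in knockouts and 5.87 ± 0.09 in controls (n = 5 each, ± SD). Its log2 fold change was 0.24 (SE 0.10), with an unadjusted p of 0.0312 and a limma adjusted p of 0.306. Knockout 3, at 6.37, was the highest array for Stc2, and 3 of the knockouts exceeded the highest control, control 6 at 5.99.

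Chac1, an enzyme that degrades glutathione, read 6.67, 6.13, 6.82, 6.05 and 6.16 on the knockouts, and 6.07, 5.97, 5.86, 5.98 and 6.36 on the controls. Knockouts 1 and 3 stood apart from the other knockouts, and the log2 fold change was 0.32 (SE 0.16, limma adjusted p = 0.410). Nupr1, a small chromatin-associated stress protein, read 7.85, 6.66, 8.21, 7.18 and 7.32 on the knockouts, and 6.51, 7.36, 6.59, 7.51 and 7.47 on the controls. Its SD of 0.60 was the widest of the members in knockouts, and in controls its SD was 0.49. Its difference of 0.36 (SE 0.29) was of the size of its own error, with a limma adjusted p of 0.631.

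The members did not move together from array to array. After each group's mean was subtracted, all 45 pairs of members were correlated over the 10 arrays and tested by an exact permutation test within groups, with Benjamini-Hochberg adjustment over the 45 pairs. Of these, 6 had an adjusted p under 0.05, 3 positive and 3 negative, and by Spearman's rho 3 did. Ddit3 and Trib3 varied together (Pearson r = 0.862, exact permutation p = 0.00194, adjusted p = 0.0333; Spearman rho = 0.869, exact permutation p = 0.00111, adjusted p = 0.0333). Without the arrays farthest from the Ddit3 median, knockouts 1 and 2, r was 0.780. Asns ran opposite to Trib3 (r = -0.871, exact permutation p = 0.00333, adjusted p = 0.0333; rho = -0.924, exact permutation p = 0.00222, adjusted p = 0.0333; r = -0.831 without control 7 and knockout 1). It ran opposite to Cebpg as well (r = -0.880, exact permutation p = 0.00361, adjusted p = 0.0333; rho = -0.927, exact permutation p = 0.00153, adjusted p = 0.0333; r = -0.927 without control 6 and knockout 2). The other pairs under the threshold were Asns with Nupr1 (r = 0.853), Trib3 with Cebpg (r = 0.855) and Nupr1 with Cebpg (r = -0.851), each with an adjusted p of 0.0333 for r and above 0.05 for rho. In 14 repeats with other array sets or scalings, each of the 6 correlations kept its sign, while the adjusted p stayed under 0.05 in 2 to 4 of them.

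**Figure D2:**
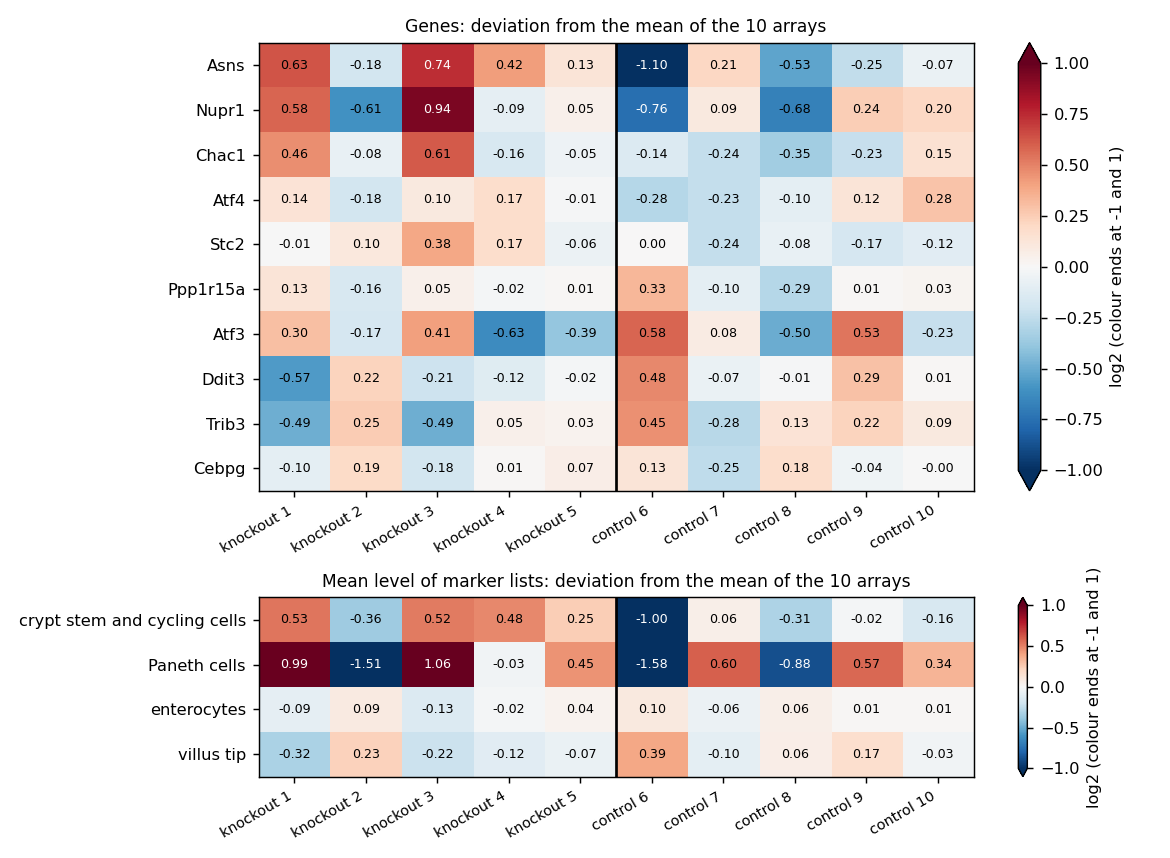
Deviation of each of the 10 genes (upper panel) and of the mean level of 4 marker lists (lower panel) from the mean over the 10 arrays, on the log2 scale, with knockouts left of the line and controls right of it. On knockout 2 and control 6 Asns and Nupr1 are low, Ddit3 and Trib3 are high and Paneth markers are at -1.51 and -1.58. Control 8 is low in Asns, Nupr1 and Paneth markers (-0.88) with Ddit3 at -0.01, and on control 9 Ddit3 and Nupr1 are both above their means.

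Within groups, 5 of the 10 members rose or fell with markers of crypt and villus epithelium. Lists of markers were averaged per array for crypt stem and cycling cells (13 of 14 measured), Paneth cells of the crypt base (11 of 13), enterocytes (11 of 12) and the villus tip (8 of 8, which includes the early-response genes Fos and Klf4). The crypt list ran from 7.63 to 8.52 in knockouts and from 6.99 to 8.04 in controls. The Paneth list ran from 9.28 to 11.86 in knockouts and from 9.21 to 11.40 in controls. The enterocyte list ran from 12.80 to 13.03 in knockouts and from 12.88 to 13.04 in controls, and the villus tip list from 9.80 to 10.35 in knockouts and from 10.02 to 10.51 in controls. All of these groups overlapped. In a bulk piece, fewer cells of a type and less RNA per cell cannot be told apart.

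Of 40 relations between a member and a marker list, tested within groups in the same way, 19 had an adjusted p under 0.05, and 15 did by Spearman's rho. Counts at an unadjusted exact permutation p under 0.05 took both directions together. For the crypt list they gave 5 of 10 members, against 17.1% of all 22180 genes. The Paneth list had 4 of 10 members, against 19.0% of all genes, the enterocyte list 5 of 10, against 17.7%, and the villus tip list 5 of 10, against 14.9%. The 4 lists are correlated with each other, so the counts are not independent. The 19 relations involved 5 members, with 4 of 4 lists each for Asns, Nupr1, Trib3 and Cebpg and 3 of 4 for Ddit3. Their directions differed. Asns and Nupr1 rose with the crypt and Paneth lists and fell with the enterocyte and villus tip lists. Trib3 and Cebpg did the reverse, with r of -0.757 and -0.764 against the crypt list and -0.793 and -0.842 against the Paneth list. Ddit3 fell with the crypt list and rose with the enterocyte and villus tip lists. Atf4, Atf3, Chac1, Ppp1r15a and Stc2 had none. Asns varied with the crypt list (r = 0.930, exact permutation p = 6.944e-04, adjusted p = 0.00463; rho = 0.891, exact permutation p = 0.00354, adjusted p = 0.0129), with r = 0.861 without control 6 and knockout 2. Nupr1 followed the Paneth list (r = 0.943, exact permutation p = 4.167e-04, adjusted p = 0.00333; rho = 0.939, exact permutation p = 0.00153, adjusted p = 0.00873), with r = 0.933 without knockout 2 and control 6. Ddit3 followed the villus tip list (r = 0.945, exact permutation p = 1.389e-04, adjusted p = 0.00278; rho = 0.964, exact permutation p = 6.944e-04, adjusted p = 0.00556), with r = 0.904 without the same arrays. Cebpg followed the enterocyte list (r = 0.926, exact permutation p = 2.083e-04, adjusted p = 0.00278; rho = 0.952, exact permutation p = 4.167e-04, adjusted p = 0.00556), with r = 0.899 without knockouts 2 and 3. These 4 were among 8 relations that stayed under an adjusted p of 0.05 in 12 of 12 repeats with 1 array left out or another scaling. The other 11 did so in 2 to 11 of the 12 repeats, the fewest being Cebpg with the villus tip list. For Ddit3 against the crypt list r was -0.760 over all arrays and -0.271 without control 6 and knockout 2.

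**Figure D3:**
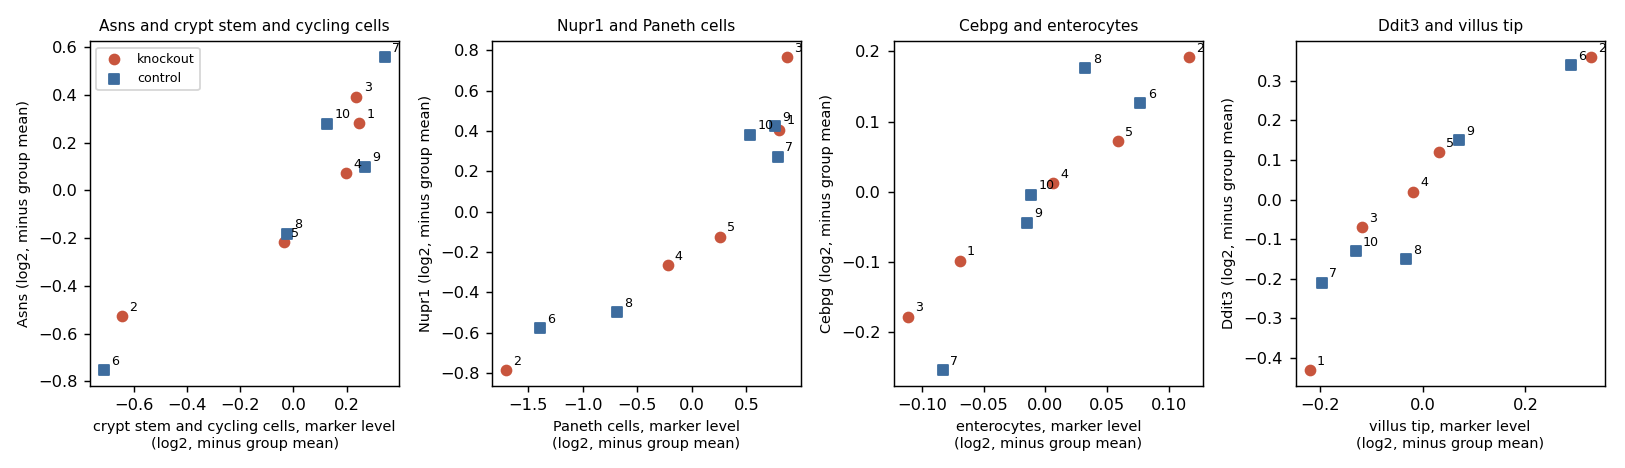
Level of Asns, Nupr1, Cebpg and Ddit3 against the mean level of a marker list, each with its group mean subtracted, on the log2 scale. Circles are knockouts and squares controls, labelled by array number. Over both groups the points rise in each panel, with r between 0.926 and 0.945. The subtraction gives both groups the same centre, so an offset between them cannot be seen.

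The difference of Asns depended on which of these lists entered the fit. It was 0.55 (SE 0.13, unadjusted p = 0.00119, limma adjusted p = 0.0672) with the Paneth score as a covariate and 0.45 (SE 0.12, limma adjusted p = 0.185) with the enterocyte score. With the crypt score, a covariate added after the data were seen, it was 0.11 (SE 0.14, limma adjusted p = 0.825). The crypt score itself was 8.27 ± 0.38 in knockouts and 7.70 ± 0.42 in controls (n = 5 each, ± SD), so in that fit the covariate carries part of the difference between the groups. Stc2 was at 0.25, 0.23 and 0.27 in the same 3 fits. With the crypt score, Ddit3 was at 0.01, Trib3 at 0.08 and Nupr1 at -0.27, each with the sign opposite to its value without the covariate.

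**Figure D4:**
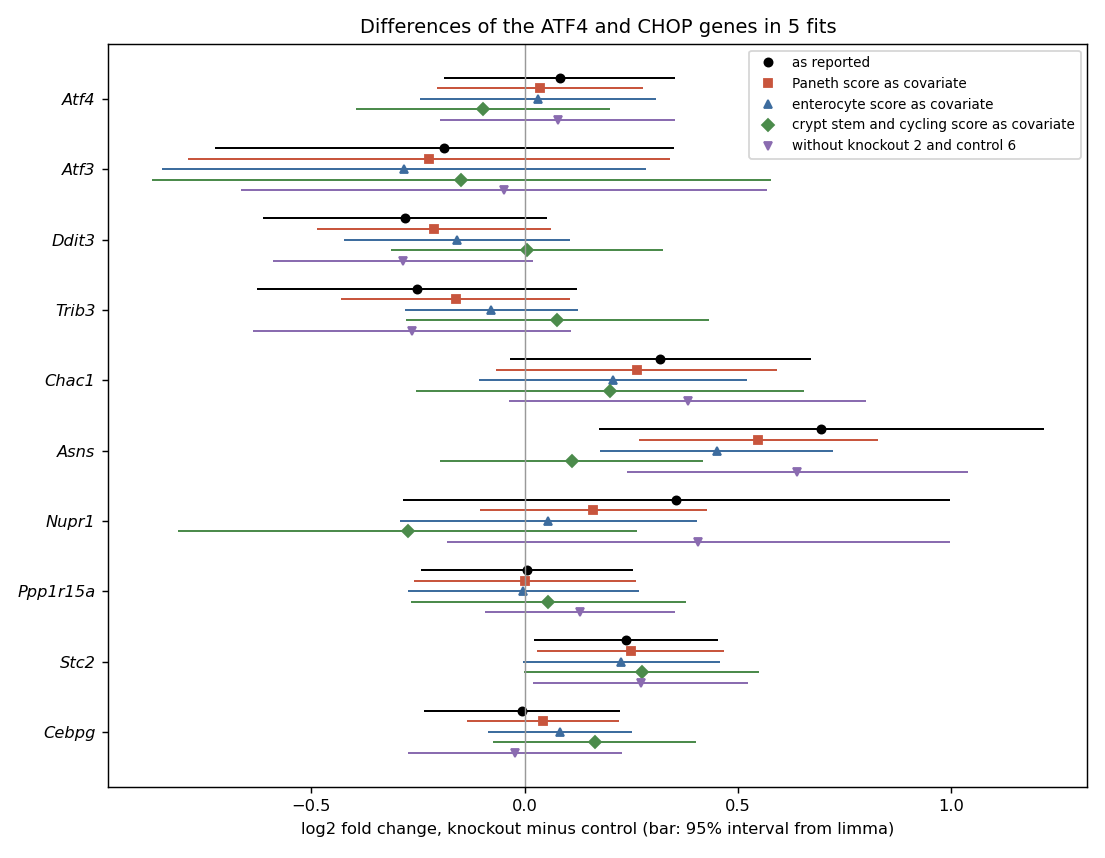
Log2 fold change, knockout minus control, of each of the 10 genes in 5 fits, with bars for the 95% interval from limma. The interval of Asns lies above 0 in 4 fits and includes 0 with the crypt stem and cycling score as a covariate. For Atf3, Ddit3, Trib3, Chac1, Nupr1, Ppp1r15a, Cebpg and Atf4 every interval includes 0.

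Upstream of ATF4, the eIF2 kinases differed little. Eif2ak1 (HRI, activated by haem shortage and mitochondrial stress) was at 0.03, Eif2ak3 (PERK, activated in the endoplasmic reticulum) at -0.04 and Eif2ak4 (GCN2, activated by uncharged transfer RNA) at 0.02. Eif2ak2 (PKR, activated by double-stranded RNA) was at 0.28 (SE 0.11, unadjusted p = 0.0297, limma adjusted p = 0.300). In the list of kinases, phosphatase subunits and the eIF2B exchange factor, 0 of 18 measured members passed after adjustment, and 5 had an unadjusted p under 0.05, all higher in knockouts, against 8.29% of all genes in that direction. The list median was 0.07. The eIF2B subunits Eif2b1 (0.51, SE 0.16, limma adjusted p = 0.205) and Eif2b5 (0.34, SE 0.10, limma adjusted p = 0.182) had the smallest p-values. eIF2B recharges eIF2 with GTP and is what phosphorylated eIF2 inhibits.

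The genes for amino acid supply that ATF4 is known to induce leaned higher in knockouts, without a call over all genes. None of the aminoacyl-tRNA synthetases and their partner Xpot passed after adjustment (0 of 13), yet 13 of 13 had positive values and 11 had an unadjusted p under 0.05, against 8.29% of all genes in that direction, with a median of 0.33. Eprs, which charges glutamate and proline, read 8.94, 8.43, 8.80, 8.76 and 8.62 on the knockouts and 8.10, 8.35, 8.25, 8.39 and 8.34 on the controls. The groups did not overlap, as for 2 of the 13 genes of this list and 1.64% of all genes in that direction. The limma adjusted p of Eprs was 0.144. Nars was at 0.40 (SE 0.13) and Mars1 at 0.43 (SE 0.14). Over all genes the median was -0.01 and 46.5% of values were positive.

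For amino acid transporters, 0 of 10 passed after adjustment, 9 had positive values, 4 had an unadjusted p under 0.05 in the higher direction (8.29% of all genes) and the median was 0.40. Slc1a4, a carrier of alanine, serine and cysteine, read 6.87, 6.23, 7.12, 6.63 and 6.34 on the knockouts, and 5.95, 6.10, 5.99, 6.08 and 6.07 on the controls. Its groups did not overlap, as for 1 of the 10 transporters and 1.64% of all genes in that direction. The difference was 0.60 (SE 0.15, limma adjusted p = 0.146). The cationic amino acid carrier Slc7a1 was at 0.73 (SE 0.18, limma adjusted p = 0.145) and the large neutral amino acid carrier Slc7a5 at 0.71 (SE 0.25, limma adjusted p = 0.228). Slc3a2, the heavy chain that partners Slc7a5, was at -0.15 (SE 0.10).

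For enzymes of amino acid and one-carbon metabolism, 0 of 13 passed after adjustment, 11 had positive values, 5 had an unadjusted p under 0.05 in the higher direction (8.29% of all genes) and the median was 0.23. Psat1, an enzyme of serine synthesis, read 7.28, 6.06, 7.51, 6.82 and 6.65 on the knockouts, and 4.92, 5.71, 5.32, 6.18 and 5.89 on the controls. Only knockout 2 fell within the range of the controls, and the log2 fold change was 1.26 (SE 0.28, limma adjusted p = 0.128). Shmt2, the mitochondrial enzyme that passes the serine carbon to folate, was at 1.07 (SE 0.23, limma adjusted p = 0.117). Mthfd1l was at 0.47 (SE 0.17). As for Asns, the array lowest for Psat1 and Shmt2 was control 6, and the highest was knockout 3. Control 6 was also lowest in the crypt list and knockouts 1 and 3 were highest. Psat1 and Shmt2 were at 0.60 and 0.49 with the crypt score as a covariate (limma adjusted p = 0.419 and 0.292).

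Some of these calls changed when knockout 2, the knockout lowest in crypt and Paneth markers, was left out. The fit without it called 2.04% of all genes (1.78% higher in knockouts), among them Shmt2 (difference 1.25, adjusted p = 0.0188), Psat1 (adjusted p = 0.0238), Slc7a1 (0.89, adjusted p = 0.0207) and Mthfd1l (0.63, adjusted p = 0.0260). Eprs (adjusted p = 0.0346), Slc1a4 (adjusted p = 0.0357), Slc7a5 (adjusted p = 0.0454) and Eif4ebp1 (adjusted p = 0.0498) were called as well, all higher in knockouts, while Asns, Nars and Mars1 were not. Of the 24 alternative fits, only this one called Eprs, Slc1a4, Slc7a5 or Eif4ebp1. It kept control 6, the control lowest in crypt and Paneth markers. With control 6 left out too, Shmt2, Psat1, Slc7a1 and Mthfd1l were still called (limma adjusted p = 0.0154, 0.0290, 0.0218 and 0.0412). With the Paneth score as a covariate and knockout 2 kept, 1.05% of all genes were called (0.816% higher), among them Shmt2, Psat1 and Slc7a1 with adjusted p-values of 0.00993, 0.0119 and 0.0199. With the crypt score as a covariate no named gene of these lists was called. Shmt2, Psat1, Slc7a1, Eprs and Slc1a4 kept a limma unadjusted p under 0.05 there, the smallest being 0.00106 for Shmt2 (adjusted p = 0.292). This covariate carries part of the difference between the groups, so the absence of calls decides nothing about these genes. In that fit the median of amino acid transporters under ATF4 was 0.13, the median of aminoacyl-tRNA synthetases under ATF4 was 0.13 and the median of amino acid and one-carbon enzymes under ATF4 was 0.09. The list of crypt stem and cycling cells moved with these lists. In it, 9 of 13 had an unadjusted p under 0.05 and were higher in knockouts (8.29% of all genes), with a median difference of 0.72. Most of these 9 were genes of cycling cells, while Olfm4 (0.74) and Ascl2 (0.50), listed for stem cells, were among them. Smoc2, Axin2 and Sox9 were at 0.23, 0.38 and 0.18. The stem cell gene Lgr5, alone in the list, went the other way, at -0.42 (SE 0.19, limma unadjusted p = 0.0506). Markers of other cells moved as well. At an unadjusted p under 0.05, 5 of 6 endothelial markers (median 0.74) and 4 of 7 fibroblast markers (median 0.59) were higher, against 8.29% of all genes. The fibroblast markers Dpt and Lum went the other way, at -0.43 and -0.21. In the lower direction there were 4 of 7 tuft cell markers (median -0.44) and 4 of 9 goblet cell markers (median -0.23), against 5.56% of all genes. Enteroendocrine markers had 4 of 9 lower as well (median -0.26), and 1 of them passed after adjustment (limma adjusted p = 3.483e-04). Smooth muscle markers had 0 of 10 at that threshold and stood high on knockout 1 and controls 7 and 9. The part of these markers in the result was not tested.

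The list of other stress genes under ATF4 or CHOP had a share near that of all genes when both directions were counted. Of 20 measured targets in this list, 0 passed after adjustment, 14 had negative values and the median was -0.06. At an unadjusted p under 0.05 there were 3 (13.9% of all genes in either direction, 8.29% in the higher direction). The 3, all with positive values, were Eif4ebp1, a brake on translation initiation (0.54, SE 0.17), Ero1a, an oxidase of the endoplasmic reticulum (0.32, SE 0.12), and Nars, which is counted among the synthetases too. Without Nars the count was 2 of 19. Sesn2, a sensor in amino acid signalling, was at -0.03, the hormone Fgf21 at -0.01 and Ddit4, an inhibitor of the kinase mTORC1, at 0.05. Partners of ATF4 and CHOP had a median of -0.02, with 0 of 14 called. Among them, Jun, also counted with the immediate early genes below, had the largest difference, at -0.74 (SE 0.17). Batf2 was at 0.29 (SE 0.11), Atf5 at 0.27 (SE 0.12) and Cebpb at -0.10 (SE 0.08). Genes of the IRE1, XBP1 and ATF6 branches of the unfolded protein response had a median of 0.09, with 0 of 21 called. At an unadjusted p under 0.05, 4 were higher in knockouts (8.29% of all genes) and 1 was lower (5.56%). In that list the chaperone gene Hspa5 was at 0.07 (SE 0.10), Xbp1 at 0.04 (SE 0.08), Sdf2l1 at 0.42 (SE 0.14), Pdia6 at 0.45 (SE 0.17) and Hyou1 at 0.36 (SE 0.13). Dnajb9, at -0.26 (SE 0.10), and Herpud1, at -0.28 (SE 0.17), went the other way.

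Immediate early genes were listed because Atf3 is induced with them. Their median was -0.21, 13 of 16 values were negative and 0 were called, while 3 had an unadjusted p under 0.05 in the lower direction (5.56% of all genes). Jun, which pairs with ATF proteins in the AP-1 factor, read 8.72, 9.26, 8.78, 8.68 and 8.83 on the knockouts, and 10.03, 9.45, 9.24, 9.90 and 9.34 on the controls. Knockout 2 lay just above control 8, and the log2 fold change was -0.74 (SE 0.17, limma adjusted p = 0.128), or -0.84 without knockout 2 (limma adjusted p = 0.0315). Dusp1, a phosphatase of MAP kinases, was at -0.77 (SE 0.27, limma adjusted p = 0.242) and Ier3 at -0.30 (SE 0.13). Myc, which many growth signals induce, was at 0.52 (SE 0.24), with an unadjusted p of 0.0470 and a limma adjusted p of 0.352.

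**Figure D5:**
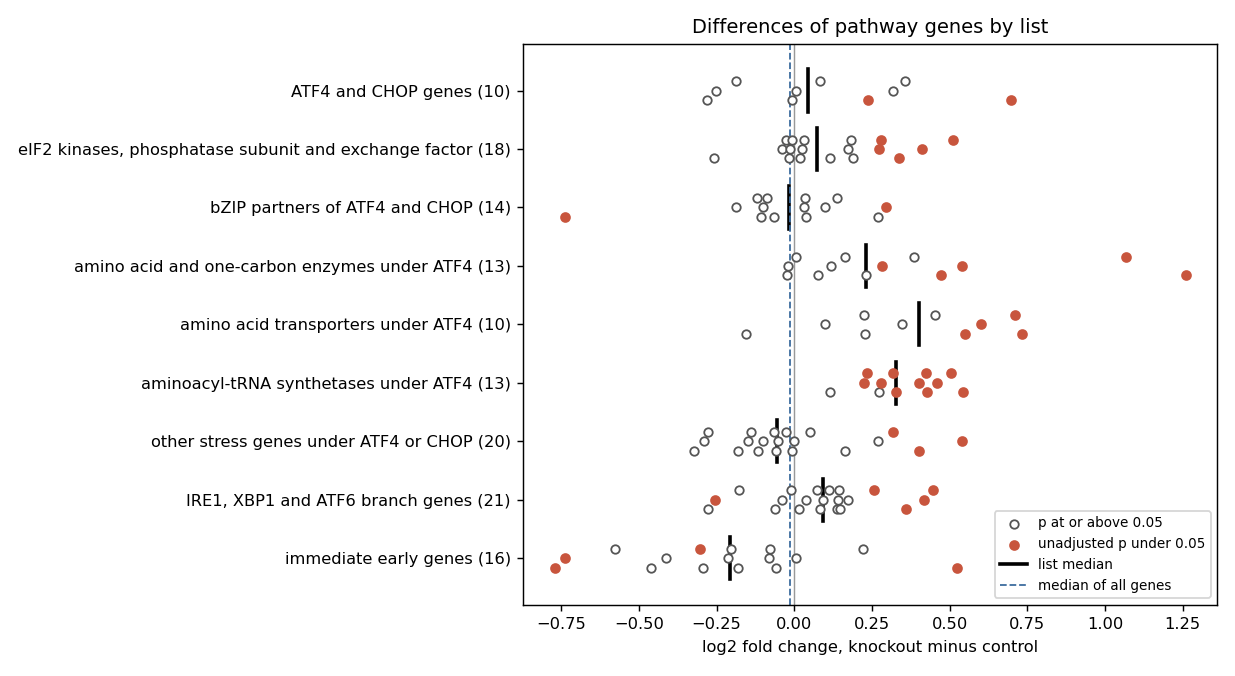
Log2 fold change, knockout minus control, of every measured gene in the 10-gene list and in 8 related lists, with the number of genes in brackets. Filled points have an unadjusted p under 0.05, black bars are list medians and the dashed line is the median of all genes. The lists for transporters, synthetases and amino acid enzymes have medians of 0.40, 0.33 and 0.23, against 0.04 for the 10 genes.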

How the data were processed

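RNA of 10 samples, 5 knockout and 5 control, was hybridised to Affymetrix whole-transcript arrays. The submitters' processing notes name RMA and Expression Console (version 1.4.1.46), and the authors deposited intensities on the linear scale, between 1.88 and 15500.2. RMA corrects background, equalises array distributions and summarises probes, so levels are relative within the set of arrays. Genome build and detection values are not given in the sources used here.

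Log2 was taken of the deposited intensities. Of 34472 probe sets, 23521 had a single gene symbol in the platform annotation, and for genes with several the probe set with the highest mean was kept. This left 22180 genes, with no filter on dim probe sets. Groups came from the sample titles. Their common source label describes intestine without phosphatidylcholine synthesis for controls too, against the genotype. The labels give no batch, litter or pairing.

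Knockout minus control was tested by lmFit and eBayes of limma 3.58.1 under R 4.3.3 (two-sided), with Benjamini-Hochberg adjustment over all 22180 genes and a threshold of 0.05. Correlations were tested by exact permutation within groups over 14400 reorderings, two-sided. Scripts were tested on simulated data. For arrays, the number of arrays limits precision.

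The members, lists and tests were chosen with earlier results of these data known. Named genes were the 10 members, Pcyt1a, the 4 eIF2 kinases, the 3 smallest p-values of each related list, and the 3 genes most like Atf4, Atf3, Ddit3 and Asns in pattern. Vil1, Gata4, Xpot, Slc3a2, Sesn2, Fgf21, Ddit4, Cebpb, Hspa5, Xbp1, Myc, Fos and Klf4 fall outside it. So do Fabp6, Slc10a2, Onecut2, Lgr5, Olfm4, Ascl2, Smoc2, Axin2, Sox9, Lum, Dpt, Dnajb9 and Herpud1. All of these names were chosen with their values in view. Promoter sequences came from RefSeq (GRCm38.p6). Alternatives were single arrays left out, median centring, further quantile normalisation, filters on dim genes, other variance models, array weights, averaged probe sets and marker scores as covariates.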

Additional observations from a re-analysis of the deposited data

Results flagged for a closer look

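Among 36 named genes, 72 groups of 5 arrays were examined for 1 array standing apart from the other 4 by Dixon's ratio at its 95% critical value. Chance gives about 1 in 20, and 3 groups were marked. None of them concerned the 10 stress response genes. Jun read 9.26 on knockout 2, where the other knockouts lay between 8.68 and 8.83. Sdf2l1 read 8.29 on knockout 1, where the other knockouts lay between 8.09 and 8.14. Mthfd1l read 5.62 on control 7, where the other controls lay between 5.88 and 5.98.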

How the results depend on the processing

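In 24 other fits, 0 of the 10 genes had an adjusted p under 0.05, and Asns kept a positive difference, between 0.11 and 0.84, with adjusted p-values between 0.0672 and 0.825. Stc2 stayed between 0.17 and 0.28 in the 23 fits that tested it, since its mean was under the filter at a log2 intensity of 6. The number of members at an unadjusted p under 0.05, 2 as reported, was 4 without knockout 2 (Chac1 and Ddit3 in addition), 3 without control 10 (Chac1 in addition) and 1 without knockout 3, control 7, control 9 or the 3 smooth muscle arrays, with the filter at 6, or with the enterocyte, smooth muscle or crypt covariate. The number of all genes called, 6 as reported, was 2 to 452 with 1 array left out, and 452 came without knockout 2. It was 2 with median centring, further quantile normalisation, the enterocyte covariate or the 3 arrays highest in smooth muscle markers left out, 233 with the Paneth covariate and 326 without knockout 2 and control 6. In single-array repeats signs near 0 turned, with ranges of -0.0695 to 0.0385 for the Cebpg difference, -0.0655 to 0.0895 for the Ppp1r15a difference, -0.0215 to 0.0915 for the Eif2ak1 difference, -0.1005 to 0.0095 for the Eif2ak3 difference and -0.0065 to 0.0535 for the Eif2ak4 difference. The Cebpg difference was 0.02 with median centring, 0.0434 with the Paneth covariate, 0.0823 with the enterocyte covariate and 0.165 with the crypt covariate, and the Ppp1r15a difference was -0.0034 with further quantile normalisation, -0.00267 with the enterocyte covariate and -0.0533 without the smooth muscle arrays. The Eif2ak3 difference was 0.0185 with the enterocyte and 0.0644 with the crypt covariate. With the crypt covariate the Atf4 difference was -0.0974, the Ddit3 difference 0.00533, the Trib3 difference 0.0765 and the Nupr1 difference -0.274. The cause of these shifts was not tested. The crypt covariate and the repeats of correlations were chosen after seeing the data. No paired analysis was possible because the groups share no replicate numbers. Detection values were not used here, so weak signals could not be told from background.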

Other observations

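The genes whose course over the 10 arrays was most like that of Atf4, Atf3, Ddit3 and Asns were taken from 10337 others with a mean log2 intensity of at least 6, after each group's mean was subtracted. For Asns they were Plp2 (Pearson r = 0.986), Tmem63a (0.985) and Rab3d (0.982). For Ddit3 they were Dyrk2 (0.969), Vps16 (0.966) and Afmid (0.964). For Atf4 they were Rad52 (0.965), Cul9 (0.936) and Timm22 (0.936), and for Atf3 Snrpe (0.952), Chrna7 (0.926) and Gm11545 (0.894). None of these 12 is a gene of the ATF4 lists above. Each is the highest of many correlations over arrays that share 1 scaling, so the values describe these arrays and carry no p.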
